A study of Mus musculus with 18 samples.

Results

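The BCL2 family was followed through all 18 libraries of the series by 9 of the 16248 genes in the deposited expression table. The 9 genes were picked by name. They were 6 pro-apoptotic genes (Bid, Bcl2l11, Pmaip1, Bbc3, Bax and Bak1) and 3 anti-apoptotic genes (Bcl2, Bcl2l1 and Mcl1). All 9 were in the table and all 9 passed the filter on low values. Bid, Bax and Bak1 are also among the pro-apoptotic genes that the study itself singled out in these libraries, so their direction is not independent evidence.

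Proteins of the BCL2 family decide whether the outer membrane of mitochondria is opened, the step that releases cytochrome c and starts the caspases. BAX and BAK, the effectors, form the pores. BCL2, BCL-XL (gene Bcl2l1) and MCL1, the guardians, hold the effectors and their activators in check, and BH3-only proteins such as BID, BIM (Bcl2l11), NOXA (Pmaip1) and PUMA (Bbc3) bind the guardians or act on the effectors. In endothelial cells (ECs), which line blood vessels, MCL1 and BCL-XL are known survival factors, and BID is the link from death receptors such as the TNF receptor to mitochondria. Much of the family is controlled as protein, by cleavage, phosphorylation or turnover, which RNA levels do not show.

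The libraries were bulk RNA-seq of ECs from female mice of the FVB strain, 3 hours after an injection of phosphate-buffered saline (PBS) or of cGAMP, an agonist of STING, the adaptor through which cells respond to DNA in the cytosol. ECs came from 3 tissues. Normal ECs were from wild type mammary fat pads. MMTV-PyMT ECs were from spontaneous breast tumours of mice that carry the polyoma middle T oncogene under the mouse mammary tumour virus promoter (MMTV), which drives it in mammary epithelium. Implanted ECs were from tumours grown by placing cultured tumour cells of such mice, in Matrigel, into the fat pad of FVB mice. The 6 groups held 3 libraries each. The cells were sorted as live CD45-negative, CD31-positive cells, so cells that had already died were not sequenced. Ages were not given in the labels. The comparison addressed how ECs of spontaneous and implanted tumours differ in their response to cGAMP.

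Reads per library, worked out from the steps of the deposited values, ranged from 9184658 to 12200551. The summed level of 8 endothelial markers was 640 to 1740 FPKM (fragments per kilobase, scaled by library by the authors) and all 8 were present in each library. Markers of other cells were present too. Epithelial and tumour cell markers (8 of 8 listed, Epcam and Krt8 among them) summed to 268 to 1030 FPKM, with the highest sums in MMTV-PyMT ECs given PBS (905 to 1030). Mural cell markers (6 of 6) summed to 801 to 1110 FPKM in normal ECs and 169 to 432 FPKM in tumour ECs. Fibroblast markers (6 of 6) summed to 303 to 728 FPKM in implanted ECs given cGAMP, against 283 to 320 FPKM with PBS. Leukocyte markers (7 of 8 in the table) summed to 213 FPKM in replicate 2 of implanted ECs given cGAMP and to at most 68.1 FPKM elsewhere. Of 5 adipocyte markers, Adipoq, Plin1, Lep and Cidec were absent from the table. The table held no value of 0 in any library, so absence from it does not show that a gene was not expressed. Fabp4 alone was in it, at 56.2 to 316 FPKM, and this gene by itself does not show that adipocytes were present. The part of these cells in the results was not tested. In bulk samples, fewer cells of a type and less RNA per cell cannot be told apart.

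In ECs of implanted tumours, cGAMP raised all 4 BH3-only genes and the effector Bak1, raised the guardian Mcl1 and lowered the guardian Bcl2. Mean levels rose 2.56-fold for Bid, 2.33-fold for Bcl2l11, 2.76-fold for Pmaip1 and 2.64-fold for Bbc3, and Bcl2 fell to 0.573 of its PBS level. In ECs of MMTV-PyMT tumours Bbc3 alone among the 9 genes passed the test, 1.93-fold higher. In ECs of the normal fat pad Pmaip1 rose 3.23-fold and Bid 1.74-fold, and no other member passed. A member passed where the adjusted p was under 0.05 in limma on log2(FPKM + 1), with Benjamini-Hochberg adjustment over all 13983 genes tested and all 18 libraries in 1 fit. All log2 changes here are on that scale and are smaller than the true change where levels are low.

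Set against the table as a whole, 6 of 9 members rose and 1 fell in implanted ECs, where 20.3% of tested genes rose and 18.8% fell. The single riser in MMTV-PyMT ECs stood beside 7.42% of tested genes that rose and 4.57% that fell, and no member fell. For normal ECs the counts were 2 risers and no faller among the members, with 13.7% of tested genes rising and 18.2% falling. The median log2 change of the 9 members was 0.48 in implanted, 0.13 in MMTV-PyMT and 0.09 in normal ECs, and that of all tested genes was -0.01, -0.04 and -0.05. The 6 pro-apoptotic genes alone had medians of 1.12, 0.16 and 0.21.

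**Figure D1:**
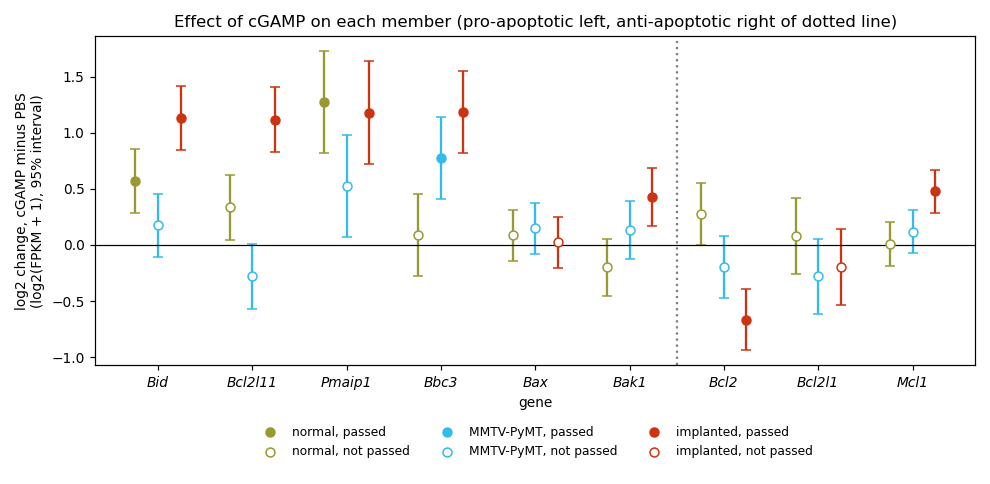
Log2 change with cGAMP (cGAMP minus PBS on the log2(FPKM + 1) scale, with 95% intervals from limma) for each member in ECs of normal fat pad, MMTV-PyMT tumours and implanted tumours, n = 3 libraries per group. Filled points passed at an adjusted p under 0.05: 7 of the 9 members in implanted ECs, 1 in MMTV-PyMT ECs (Bbc3) and 2 in normal ECs (Bid and Pmaip1).

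Whether all cGAMP libraries lay on 1 side of all PBS libraries was also read from the same values, without a model. In implanted ECs the 2 sets of libraries did not overlap for 7 members, 6 with cGAMP higher and 1 with cGAMP lower, while over all tested genes 22.4% were wholly higher and 22.8% wholly lower. In MMTV-PyMT ECs 1 member was wholly higher (Bbc3) and 3 were wholly lower (Bcl2l11, Bcl2 and Bcl2l1), against 14.8% and 18.6% of tested genes. The 3 lower members had not passed in limma. Normal ECs had 3 wholly higher members (Bid, Bcl2l11 and Pmaip1) and none wholly lower, against 20.9% and 28.0%.

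These counts depend in part on how the libraries are scaled. The deposited values equal read counts divided by median-of-ratios size factors, and in the 3 implanted cGAMP libraries the divisor was 0.735 to 0.83 of the recovered reads, compared with 0.964 to 1.15 in the other libraries. When the same reads were scaled by total reads instead, the median of all genes in implanted ECs moved to -0.25 (log2), and the members that passed became 4 higher (the BH3-only genes) and 3 lower (Bax, Bcl2 and Bcl2l1). The split of all tested genes went from 2841 higher and 2623 lower to 1676 and 5937 in implanted ECs, and from 1037 and 639 to 917 and 2384 in MMTV-PyMT ECs. Quantile normalization gave 2359 and 3677 in implanted ECs, 994 and 1018 in MMTV-PyMT ECs, and 4 members higher and 1 lower in implanted ECs. The rise of the 4 BH3-only genes and the fall of Bcl2 in implanted ECs therefore held under each scaling, and those of Bak1 and Mcl1 did not.

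Among the BH3-only genes, Bid (chr6:120891930-120916853, minus strand, in GENCODE M21 on mm10) encodes the protein that caspase 8 cleaves after death receptor signalling. In normal ECs Bid was at 2.004, 1.97 and 2.002 FPKM in the PBS libraries and at 4.08, 3.38 and 2.96 FPKM with cGAMP. MMTV-PyMT ECs had 4.16, 5.17 and 6.79 FPKM with PBS and 6.58, 5.69 and 6.04 FPKM with cGAMP. Implanted ECs had 3.59, 3.09 and 3.48 FPKM with PBS and 8.36, 9.95 and 7.65 FPKM with cGAMP. The 2 groups overlapped in MMTV-PyMT ECs only, where the PBS level was already the highest of the 3 tissues. The log2 change was 1.13 (SE 0.13, limma adjusted p = 5.24e-06) in implanted ECs, 0.57 (SE 0.13, adjusted p = 0.00408) in normal ECs and 0.17 (95% interval -0.11 to 0.46, adjusted p = 0.429) in MMTV-PyMT ECs. Exons of Bid share 628 bases with Bcl2l13 on the other strand, which was at 5.84 to 9.15 FPKM, and whether counting used the strand was not stated, so some reads could be of either gene.

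Bcl2l11 (chr2:128126038-128162547, plus strand), the gene of BIM, which binds every guardian, showed the widest gap between the 2 tumour types. Normal ECs had 5.04, 6.04 and 5.0 FPKM with PBS and 7.30, 6.95 and 6.80 FPKM with cGAMP. MMTV-PyMT ECs had 9.25, 8.88 and 9.85 FPKM with PBS and 8.66, 7.16 and 6.82 FPKM with cGAMP. In implanted ECs the level was 11.5, 10.9 and 11.5 FPKM with PBS and 34.7, 20.9 and 23.2 FPKM with cGAMP. All cGAMP libraries lay above PBS in normal and implanted ECs and below it in MMTV-PyMT ECs. In implanted ECs the log2 change was 1.12 (SE 0.14, adjusted p = 8.33e-06). Its changes of 0.34 in normal ECs (adjusted p = 0.0722) and -0.28 in MMTV-PyMT ECs (adjusted p = 0.21, limma with Benjamini-Hochberg adjustment) did not pass. Without replicate 1 of implanted ECs given cGAMP, which enters these 2 tests only through the shared spread, the adjusted p was 0.00834 in normal and 0.0456 in MMTV-PyMT ECs. Without replicate 2 of that group it was 0.0421 in normal ECs. The rise in normal ECs also passed in limma after quantile normalization (0.39, adjusted p = 0.0124) and under scaling by total reads (0.34, adjusted p = 0.0454). With the compared groups alone its adjusted p was 0.0278. The fall in MMTV-PyMT ECs passed under scaling by total reads (-0.40, adjusted p = 0.0291).

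Pmaip1, on chromosome 18, encodes NOXA, which targets MCL1 for degradation. Normal ECs rose from 1.55, 1.61 and 2.03 FPKM to 5.34, 5.99 and 5.42 FPKM. MMTV-PyMT ECs had 4.44, 2.53 and 3.11 FPKM with PBS and 6.35, 4.21 and 5.13 FPKM with cGAMP. Implanted ECs had 3.33, 3.27 and 3.93 FPKM with PBS and 13.8, 9.49 and 5.86 FPKM with cGAMP. The spread within implanted cGAMP libraries was the widest of any group for this gene, and all 3 lay above PBS. Its log2 change was 1.27 (SE 0.22, adjusted p = 3.80e-04) in normal ECs and 1.18 (SE 0.22, adjusted p = 4.10e-04) in implanted ECs by limma. In MMTV-PyMT ECs it was 0.52 (95% interval 0.07 to 0.98, adjusted p = 0.129). Read counts for Pmaip1 were 50 to 60 per library in normal ECs given PBS, the lowest of any member.

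Bbc3 (chr7:16308393-16318205, plus strand), the gene of PUMA, a p53 target that binds all guardians, rose in both tumour types. In normal ECs it was at 2.99, 4.21 and 3.35 FPKM with PBS and 3.66, 4.35 and 3.34 FPKM with cGAMP. MMTV-PyMT ECs had 3.41, 3.95 and 4.04 FPKM with PBS and 9.38, 6.35 and 6.24 FPKM with cGAMP, and implanted ECs had 3.12, 4.09 and 4.38 FPKM and 7.83, 12.9 and 9.86 FPKM. The PBS levels of the 3 tissues overlapped, and cGAMP libraries stood clear of PBS in both tumour types. The log2 change was 0.78 (SE 0.17, adjusted p = 0.00742) in MMTV-PyMT ECs and 1.19 (SE 0.17, adjusted p = 4.69e-05) in implanted ECs by limma, against 0.09 (adjusted p = 0.742) in normal ECs.

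**Figure D2:**
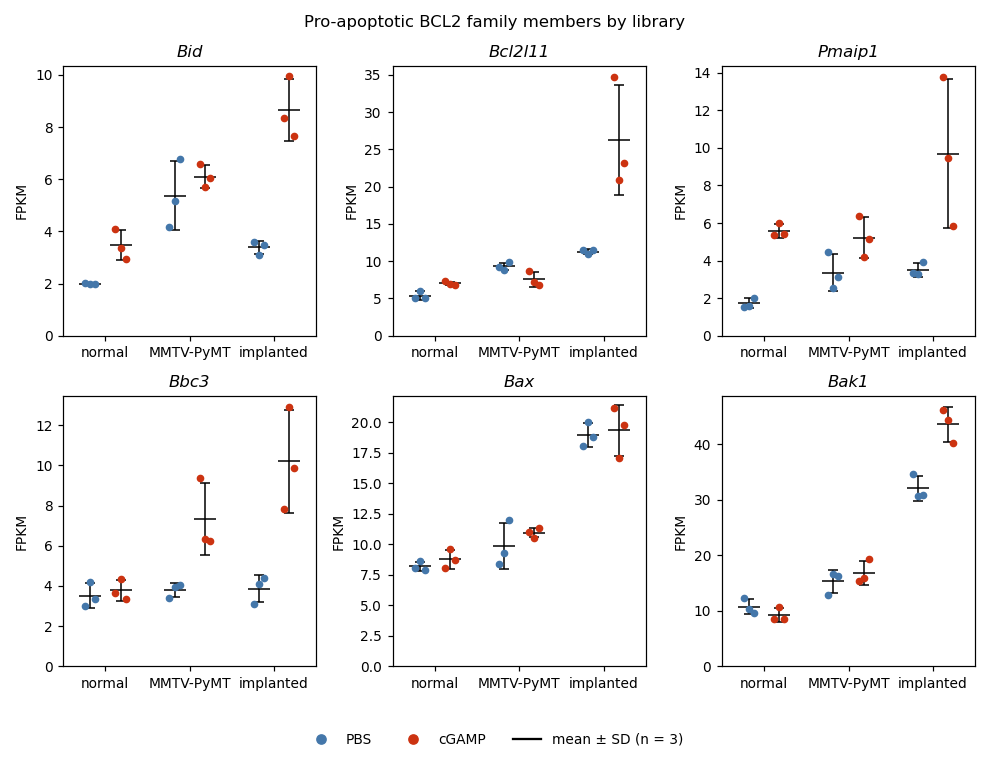
FPKM of the 6 pro-apoptotic members in each of the 18 libraries (points; blue PBS, red cGAMP), with the mean and SD of 3 libraries as bars. Implanted cGAMP libraries were above their PBS libraries for Bid, Bcl2l11, Pmaip1, Bbc3 and Bak1, while Bax stood high in implanted ECs with both treatments.

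Promoter letters of the members were searched for known motifs. The motifs given here were kept from a wider look at letter patterns, so their counts describe a selected set and were not tested. RefSeq start sites on GRCm38.p6 gave 13 promoters for 8 members, and the 250 bases before each start were read on both strands. No promoter of Pmaip1 was searched. GAAANNGAA, the core of the interferon-stimulated response element, was in no member promoter, and 7.13% of all 32851 promoters held it. TTCNNNGAA, the gamma-activated site bound by STAT factors, was also in none, against 7.02% of all promoters. GGGNNTTCC, a core of NF-kB sites, was in 2 of the 13 member promoters (of Bcl2l1 and Bbc3), against 4.98% of all promoters. TGTTTAC, bound by FoxO factors, was also in 2 of the 13 (of Bcl2l11 and Bbc3), against 3.17%. The motifs do not overlap each other in the windows printed, and a match of letters is not a bound site. The 3 windows shown belong to the 2 BH3-only genes with the largest gaps between tissues. Capitals mark the motif, which in the first 2 windows reads on the minus strand. Both Bbc3 windows lie inside the annotated gene, outside exons of M21, before other start sites of the gene, and the Bcl2l11 window lies upstream of the gene.
Bbc3, NF-kB, chr7:16309422-16309480, plus strand: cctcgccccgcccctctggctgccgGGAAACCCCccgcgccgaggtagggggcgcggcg
Bcl2l11, FoxO, chr2:128125788-128125842, plus strand: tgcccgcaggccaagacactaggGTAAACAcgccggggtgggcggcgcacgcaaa
Bbc3, FoxO, chr7:16310069-16310125, plus strand: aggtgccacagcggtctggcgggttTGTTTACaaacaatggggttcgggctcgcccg

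The effectors differed by tissue far more than by treatment. Bax (chr7:45461697-45466898, minus strand) was at 8.06, 8.61 and 7.91 FPKM in normal ECs given PBS and at 8.03, 9.59 and 8.70 FPKM with cGAMP. MMTV-PyMT ECs had 8.37, 9.31 and 11.99 FPKM with PBS and 11.0, 10.5 and 11.3 FPKM with cGAMP. Implanted ECs had 18.1, 19.99 and 18.8 FPKM with PBS and 21.2, 17.1 and 19.8 FPKM with cGAMP. Every implanted library was above every other library, and PBS and cGAMP overlapped in each tissue. Its log2 change with cGAMP in implanted ECs was 0.02 (95% interval -0.20 to 0.25, adjusted p = 0.882 by limma), which scaling by total reads turned to -0.28 (adjusted p = 0.0345). Between PBS groups, implanted ECs exceeded MMTV-PyMT ECs by 0.89 (SE 0.11, adjusted p = 1.07e-05) and normal ECs by 1.12 (SE 0.11, adjusted p = 4.74e-07).

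Bak1 (chr17:27019810-27029009, minus strand) followed the same order of tissues from a higher level. It was at 12.2, 10.4 and 9.58 FPKM in normal ECs given PBS and 8.45, 10.8 and 8.49 FPKM with cGAMP. MMTV-PyMT ECs had 12.9, 16.7 and 16.3 FPKM with PBS and 15.4, 15.9 and 19.3 FPKM with cGAMP. Implanted ECs had 34.7, 30.7 and 30.9 FPKM with PBS and 46.3, 44.4 and 40.2 FPKM with cGAMP. In implanted ECs, PBS and cGAMP did not overlap, and both were clear of all libraries of the other tissues. The log2 change with cGAMP was 0.43 (SE 0.12, adjusted p = 0.0101) in implanted ECs by limma, and it was 0.12 (adjusted p = 0.422) under scaling by total reads and 0.10 (adjusted p = 0.547) under quantile normalization. PBS levels in implanted ECs exceeded those of MMTV-PyMT ECs by 1.03 (SE 0.12, adjusted p = 7.78e-06) and those of normal ECs by 1.499 (SE 0.12, adjusted p = 6.62e-08). Tissue accounted for 93.8% of the sum of squares of Bax over the 18 libraries and 94.0% of that of Bak1 on the log2 scale. Exons of Bax share 192 bases with Gm45808, and those of Bak1 share 614 bases with Ggnbp1, which was at 0.625 FPKM or less.

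Of the guardians, Bcl2 (chr1:106538178-106714274, minus strand) was the member that fell. Normal ECs had 4.41, 3.88 and 5.40 FPKM with PBS and 7.26, 5.60 and 4.49 FPKM with cGAMP. MMTV-PyMT ECs had 7.60, 6.90 and 7.50 FPKM with PBS and 6.32, 6.65 and 5.85 FPKM with cGAMP. In implanted ECs Bcl2 went from 7.03, 6.17 and 6.08 FPKM to 3.51, 4.06 and 3.46 FPKM. All cGAMP libraries were below PBS in both tumour types, and the 2 treatments overlapped in normal ECs. By limma the log2 change was -0.67 (SE 0.13, adjusted p = 6.92e-04) in implanted ECs, -0.20 (95% interval -0.47 to 0.08, adjusted p = 0.352) in MMTV-PyMT ECs and 0.28 (adjusted p = 0.116) in normal ECs. Exons of Bcl2 share 558 bases with D630008O14Rik, which was at 0.849 FPKM or less.

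Bcl2l1 (chr2:152780668-152831728, minus strand), the gene of BCL-XL, passed in no cGAMP comparison within a tissue. Normal ECs had 23.8, 27.6 and 29.3 FPKM with PBS and 30.2, 26.2 and 29.0 FPKM with cGAMP. MMTV-PyMT ECs had 21.2, 21.8 and 22.7 FPKM with PBS and 17.8, 17.5 and 18.2 FPKM with cGAMP. Implanted ECs had 18.3, 20.04 and 25.02 FPKM with PBS and 12.7, 20.01 and 23.4 FPKM with cGAMP. The cGAMP libraries of MMTV-PyMT ECs were all lower, by a log2 change of -0.28 (95% interval -0.62 to 0.06, adjusted p = 0.279 by limma), and within implanted ECs the spread covered any difference. The low value of 12.7 FPKM was in replicate 1 of implanted ECs given cGAMP, the same library that had the highest Bcl2l11 and Pmaip1, the highest endothelial marker sum (1740 FPKM) and the lowest epithelial marker sum (268 FPKM). Without it the log2 change of Bcl2l1 in implanted ECs went from -0.20 to 0.04, and the members that passed in implanted ECs were 6 higher and 1 lower as before. The count was also 6 and 1 without replicate 2, the library with the high leukocyte marker sum.

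Mcl1 (chr3:95658788-95663176, plus strand) was by far the most abundant member. Its RNA and its protein are both short-lived. Normal ECs had 143, 139 and 160 FPKM with PBS and 155, 144 and 145 FPKM with cGAMP. MMTV-PyMT ECs had 122, 93.3 and 99.2 FPKM with PBS and 111, 116 and 114 FPKM with cGAMP. Implanted ECs had 92.7, 92.3 and 98.7 FPKM with PBS and 142, 128 and 127 FPKM with cGAMP. The 2 treatments separated in implanted ECs alone, where the log2 change was 0.48 (SE 0.09, adjusted p = 6.00e-04 by limma). It was 0.16 (adjusted p = 0.112) under scaling by total reads and 0.02 (adjusted p = 0.853) under quantile normalization. In MMTV-PyMT ECs the log2 change was 0.12 (adjusted p = 0.427) and in normal ECs 0.01 (adjusted p = 0.95).

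**Figure D3:**
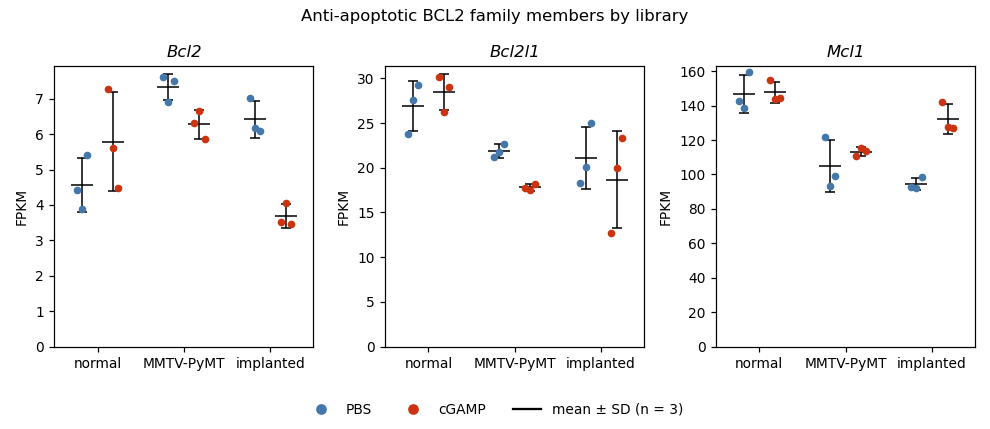
FPKM of the 3 anti-apoptotic members in each of the 18 libraries (points; blue PBS, red cGAMP), with the mean and SD of 3 libraries as bars. Bcl2 was lowest in implanted ECs given cGAMP, at 3.46 to 4.06 FPKM, and the Mcl1 axis reaches 160 FPKM while that of Bcl2 ends below 8.

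Whether the response differed between tissues was tested as the difference of 2 changes. Between implanted and MMTV-PyMT ECs, 2 members responded more in implanted ECs and none less, with 7.34% and 3.72% of tested genes in those directions. They were Bcl2l11, by 1.40 (log2, SE 0.19, adjusted p = 3.35e-04 by limma), a difference that 0.937% of tested genes exceeded in size, and Bid, by 0.96 (SE 0.19, adjusted p = 0.00359). Bcl2 (-0.47, adjusted p = 0.117), Mcl1 (0.36, adjusted p = 0.0892), Pmaip1 (0.66, adjusted p = 0.193) and Bbc3 (0.41, adjusted p = 0.327) did not pass. For Bbc3 the 95% interval of the difference was -0.11 to 0.93, a range that holds both an equal response and a much larger response in implanted ECs.

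Against normal ECs, 5 members responded more in implanted ECs and 1 less, with 12.5% and 6.09% of tested genes in those directions. The differences were 1.10 for Bbc3 (SE 0.24, adjusted p = 0.00496), 0.78 for Bcl2l11 (SE 0.19, adjusted p = 0.0101), 0.63 for Bak1 (adjusted p = 0.0165), 0.56 for Bid (adjusted p = 0.0487), 0.47 for Mcl1 (adjusted p = 0.0179) and -0.94 for Bcl2 (SE 0.18, adjusted p = 0.00206), all by limma. The call for Bid was lost when any of 14 libraries was left out (adjusted p up to 0.115), and that for Mcl1 without replicate 3 of normal ECs given PBS (0.41, adjusted p = 0.0557). Under scaling by total reads and under quantile normalization Bbc3 alone still passed higher and Bcl2 still passed lower. For MMTV-PyMT against normal ECs no member passed in either direction in limma, with 5.48% and 2.9% of tested genes passing. At an unadjusted p under 0.05, 4 members had a difference there: Bbc3 (0.69), Bcl2l11 (-0.62), Pmaip1 (-0.75) and Bcl2 (-0.47). Fitted on recovered reads with voom, Bcl2l11 did pass (-0.70, adjusted p = 0.0425). These 3 comparisons share libraries in pairs, and so are not independent.

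The tissues already differed before cGAMP. In MMTV-PyMT ECs given PBS, 5 members were higher than in normal ECs and 1 was lower, where 29.8% and 26.6% of tested genes were. Bid led, by 1.07 (log2, SE 0.13, adjusted p = 6.28e-06), followed by Bcl2l11 (0.70, adjusted p = 4.28e-04), Pmaip1 (0.66, adjusted p = 0.0159), Bcl2 (0.59, adjusted p = 0.00107) and Bak1 (0.47, adjusted p = 0.00354), and Mcl1 was lower by limma (-0.49, adjusted p = 2.79e-04). Implanted ECs given PBS had 6 members higher than normal ECs and 1 lower, against 25% and 23.6% of tested genes. Beside Bak1 and Bax these were Bcl2l11 (0.96, adjusted p = 3.06e-05), Pmaip1 (0.73, adjusted p = 0.0106), Bid (0.55, adjusted p = 0.00283) and Bcl2 (0.42, adjusted p = 0.0126), and Mcl1 was lower (-0.63, adjusted p = 3.34e-05). The Bcl2 call in implanted ECs was lost without replicate 2 of normal ECs given PBS (0.33, adjusted p = 0.0673), without replicate 1 of implanted ECs given PBS (0.37, adjusted p = 0.0545) and under scaling by total reads (0.27, adjusted p = 0.0841). Pmaip1 no longer passed in MMTV-PyMT ECs when replicate 1 of normal ECs given PBS (0.61, adjusted p = 0.0507) or of MMTV-PyMT ECs given PBS (0.49, adjusted p = 0.0847) was left out. Both comparisons use the same normal PBS libraries. Mural cell markers were also lower in tumour ECs, 6 of 6 in implanted ECs given PBS with a median log2 change of -2.15. In MMTV-PyMT against normal ECs given PBS, 5 of 8 epithelial and tumour cell markers were higher and 1 was lower (median 1.27). In that comparison 5 of 8 endothelial markers were lower and 0 higher (median -0.482). The part of these cells in the differences between members was not tested.

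Compared directly, implanted ECs given PBS had 2 members higher than MMTV-PyMT ECs (Bax and Bak1) and 1 lower (Bid, -0.52, SE 0.13, adjusted p = 0.00488 by limma), with 20.8% and 24.6% of tested genes in those directions. After cGAMP the same 2 tissues differed in 6 members, 5 higher in implanted ECs and 1 lower, with 26% and 24.9% of tested genes. Bcl2l11 was higher by 1.65 (SE 0.14, adjusted p = 1.47e-07), Bak1 by 1.32 (SE 0.12, adjusted p = 3.67e-07), Bax by 0.76 (adjusted p = 2.93e-05), Pmaip1 by 0.73 (adjusted p = 0.0106) and Bid by 0.44 (adjusted p = 0.0123), and Bcl2 was lower by limma (-0.64, adjusted p = 7.20e-04). The Pmaip1 call was lost without replicate 1 of implanted ECs given cGAMP (0.46, adjusted p = 0.067), under scaling by total reads (adjusted p = 0.0815) and with the compared groups alone (adjusted p = 0.0685). That of Bid was lost without replicate 2 of the same group (0.34, adjusted p = 0.0569) and under scaling by total reads (0.14, adjusted p = 0.413). Bbc3 (0.42, adjusted p = 0.0502) and Mcl1 (0.22, adjusted p = 0.0547) lay at the threshold. Epithelial and tumour cell markers were lower in implanted than in MMTV-PyMT ECs given PBS, 5 of 8 by the test with a median of -0.996 (log2). In the same comparison 6 of 8 endothelial markers were higher and 1 was lower. With cGAMP, 6 of 8 epithelial markers were lower in implanted ECs (median -0.799), while 6 of 7 leukocyte markers (median 1.51) were higher. Of 8 endothelial markers, 5 were then higher and 1 was lower (median 0.623). What these cells add to the member levels was not tested.

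The order of levels over the 6 groups differed between members. Bid was highest in implanted ECs given cGAMP (8.65 ± 1.17 FPKM, SD, n = 3), apart from MMTV-PyMT ECs given cGAMP (6.10 ± 0.447) in every library, and these overlapped with MMTV-PyMT ECs given PBS (5.37 ± 1.32). Bcl2l11 ran from 26.3 ± 7.37 FPKM in implanted ECs given cGAMP through 11.3 ± 0.323 with PBS to 5.36 ± 0.588 in normal ECs given PBS, and only MMTV-PyMT and normal ECs given cGAMP overlapped as neighbours. Pmaip1 was ordered by treatment, with the 3 cGAMP groups above the 3 PBS groups, and 60.4% of its sum of squares was due to treatment. Bcl2 had overlapping ranges between all neighbours in its order, and its largest component, 38.4%, was the tissue-by-treatment term. Bcl2l1 was highest in normal ECs (28.5 ± 2.04 with cGAMP, 26.9 ± 2.81 with PBS), and 33.5% of its sum of squares lay within groups, the largest such share of the 9.

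A single balance was made for each library as the mean log2(FPKM + 1) of the 6 pro-apoptotic members minus that of the 3 anti-apoptotic members, and it is given as a description with no test. With PBS it was -2.39 ± 0.16 (SD, n = 3) in normal ECs, -1.79 ± 0.14 in ECs of MMTV-PyMT tumours and -1.38 ± 0.03 in implanted ECs. With cGAMP it was -2.15 ± 0.16, -1.43 ± 0.14 and -0.41 ± 0.26. The anti-apoptotic side was thus higher on this scale in every library, and the 3 implanted cGAMP libraries, at -0.13, -0.45 and -0.64, were nearest to 0. Balance rose by 0.97 in implanted ECs, 0.37 in MMTV-PyMT ECs and 0.24 in normal ECs, where the pooled SD within groups was 0.185, 0.14 and 0.157. With the deposited scaling, the pro-apoptotic side in implanted ECs went from 3.26 to 4.11 and the anti-apoptotic side from 4.64 to 4.51. This split depends on the scaling, and the sides were not computed under another. Under scaling by total reads, log2 changes with cGAMP in implanted ECs were lower on both sides. They were 0.12 for Bak1 and -0.28 for Bax, and 0.16 for Mcl1 and -0.50 for Bcl2l1. A balance of summed FPKM, in which Mcl1 makes up 77.5% to 85.5% of the anti-apoptotic sum, rose less, by 0.34, 0.16 and 0.23.

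**Figure D4:**
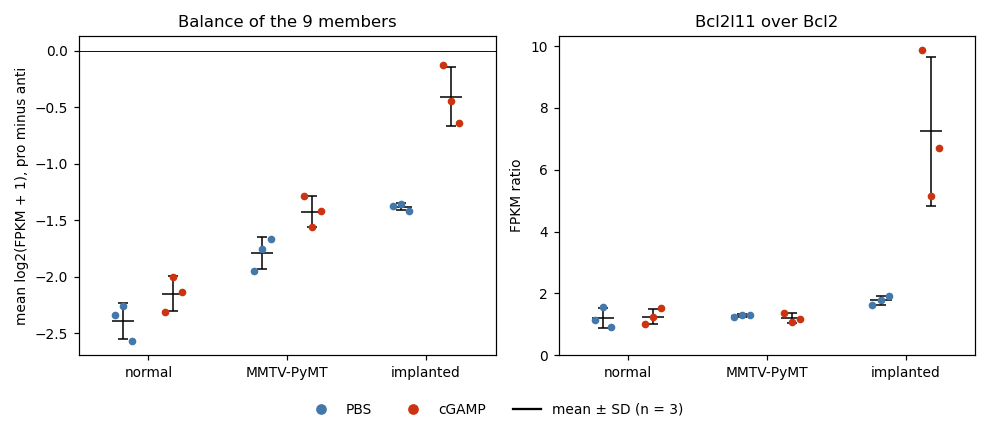
Left, balance of the 9 members in each library (mean log2(FPKM + 1) of 6 pro-apoptotic minus 3 anti-apoptotic genes); right, the FPKM ratio of Bcl2l11 over Bcl2; bars give the mean and SD of 3 libraries. Implanted ECs given cGAMP stood apart in both panels, with a balance of -0.64 to -0.13 and a ratio of 5.16 to 9.88.

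Pairs of a pro-apoptotic gene and a guardian it binds were read as FPKM ratios, which compare levels per length. Bcl2l11 over Bcl2 was 1.77 ± 0.133 (SD, n = 3) in implanted ECs given PBS and 7.25 ± 2.41 with cGAMP, and 1.20 to 1.27 on average in the other 4 groups. Bid over Bcl2 went from 0.528 ± 0.0388 to 2.35 ± 0.122 in implanted ECs and from 0.734 ± 0.18 to 0.976 ± 0.104 in MMTV-PyMT ECs. Bbc3 over Bcl2l1 rose in both tumour types, from 0.183 ± 0.0183 to 0.562 ± 0.122 in implanted and from 0.173 ± 0.0111 to 0.411 ± 0.101 in MMTV-PyMT ECs. Bak1 over Mcl1, the pair known to be held together at the mitochondrion, was 0.34 ± 0.0315 and 0.33 ± 0.0161 in implanted ECs, 0.15 ± 0.0385 and 0.149 ± 0.0183 in MMTV-PyMT ECs and 0.0736 ± 0.0129 and 0.0626 ± 0.0107 in normal ECs. That ratio differed between tissues and overlapped between treatments. Pmaip1 over Mcl1 rose on average in all 3 tissues. It went from 0.0117 ± 0.00093 to 0.0378 ± 0.00361 in normal ECs and from 0.037 ± 0.0024 to 0.0724 ± 0.0254 in implanted ECs. In MMTV-PyMT ECs it went from 0.0316 ± 0.00463 to 0.0463 ± 0.0105.

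How alike the members were over the 18 libraries is given by Pearson's r of log2(FPKM + 1), as a description, since the libraries share tissues and treatments. Bax and Bak1 had r = 0.95 and Bid and Bbc3 r = 0.81, and each of the 6 pro-apoptotic genes had a negative r with Bcl2 and with Bcl2l1. Bcl2 and Bcl2l1 had r = 0.04, and Mcl1 and Bcl2 had r = -0.51. Among all tested genes the closest to each member were Itgav, Ptx3 and Noc4l for Bid (r = 0.963, 0.953 and 0.952), Mest, Osbp2 and Bmp1 for Bax (0.977, 0.973 and 0.97) and Bmp1, Itm2c and Camkk2 for Bak1 (0.983, 0.983 and 0.981). For Bcl2l11 they were Rtn4, Rhbdf2 and Morf4l1 (0.973, 0.966 and 0.961), for Pmaip1 Sqstm1, Hbegf and Plekho2 (0.97, 0.968 and 0.963) and for Bbc3 Dhrs9, Cldn23 and Polr2g (0.951, 0.929 and 0.924). The guardians had Wdhd1, Mta2 and Sf3b6 for Bcl2 (0.879, 0.871 and 0.862), Trp53inp1, Thsd4 and Alas1 for Bcl2l1 (0.874, 0.873 and 0.86) and Kpna4, Clic5 and Stk38l for Mcl1 (0.954, 0.953 and 0.948).

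Of 10 other relatives of the family that were tested, 1 rose and 4 fell with cGAMP in implanted ECs, 1 and 1 in MMTV-PyMT ECs and 1 and 5 in normal ECs. Of all tested genes, 20.3% rose and 18.8% fell in implanted, 7.42% and 4.57% in MMTV-PyMT and 13.7% and 18.2% in normal ECs. None of the 3 further BH3-only genes among the relatives rose in any tissue. Bik, a BH3-only gene of the endoplasmic reticulum, fell in implanted ECs (-0.74, SE 0.14, adjusted p = 6.80e-04) and in MMTV-PyMT ECs (-0.73, SE 0.14, adjusted p = 0.00298), and Bad fell in normal ECs (-0.32, adjusted p = 0.00774), by limma. Bok, the third effector, fell in implanted ECs from 25.5 ± 7.44 to 12.5 ± 0.248 FPKM (-0.93, SE 0.17, adjusted p = 4.64e-04) and in normal ECs (-0.49, adjusted p = 0.0381), and had a log2 change of -0.06 (adjusted p = 0.866) in MMTV-PyMT ECs. The change in Bok was lower in implanted than in MMTV-PyMT ECs by a tested difference of -0.87 (adjusted p = 0.029). Bcl2l2, the guardian BCL-W, fell in implanted ECs (-0.27, adjusted p = 0.0377) and normal ECs (-0.28, adjusted p = 0.0394). Among 5 atypical relatives tested, Bcl2l14 rose in normal (1.35), MMTV-PyMT (1.17) and implanted ECs (0.58, adjusted p = 0.0445) and Bnip3l, a mitophagy receptor, fell in normal (-0.42) and implanted ECs (-0.31, adjusted p = 0.00968). Bcl2l10, Hrk and the Bcl2a1 genes were not analysed here.

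Downstream of the mitochondria, 6 of 11 genes rose and 1 fell in implanted ECs with cGAMP, against 1 and 1 in MMTV-PyMT and 1 and 1 in normal ECs, with the shares of all genes given above. Apaf1, the scaffold of the apoptosome, rose from 9.04 ± 1.21 to 22.0 ± 5.84 FPKM in implanted ECs (1.18, SE 0.21, adjusted p = 2.93e-04) and in MMTV-PyMT ECs (0.78, adjusted p = 0.0205), by limma. Htra2 (1.09), an inhibitor of caspase inhibitors, and Cycs (0.65), cytochrome c itself, rose in implanted ECs too. Casp9, the initiator that the apoptosome activates, fell in all 3 tissues, with log2 changes of -0.59 in implanted, -0.53 in MMTV-PyMT and -0.72 in normal ECs. The response of Htra2 was larger in implanted than in MMTV-PyMT ECs by a tested difference of 0.95 (adjusted p = 0.00748, limma).

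Because Bbc3, Pmaip1 and Bax are p53 targets, 18 other genes of p53 and its targets were read beside them. They moved both ways: 5 rose and 7 fell in implanted ECs, 5 and 4 in MMTV-PyMT ECs and 6 and 7 in normal ECs. The shares of all tested genes that rose and fell were 20.3% and 18.8%, 7.42% and 4.57%, and 13.7% and 18.2% in that order. Cdkn1a, the cell cycle inhibitor p21, rose in all 3 tissues, from 31.2 ± 3.42 to 158 ± 38.9 FPKM in implanted ECs (2.28, SE 0.17, adjusted p = 3.40e-08). It rose from 14.5 ± 3.2 to 39.3 ± 5.65 FPKM in the spontaneous tumours (1.39) and from 33.7 ± 5.64 to 72.8 ± 5.13 FPKM in normal ECs (1.10). Eda2r, of the TNF receptor family, rose by 1.64 in implanted (adjusted p = 3.82e-06), 0.76 in MMTV-PyMT (adjusted p = 0.0141) and 0.52 in normal ECs (adjusted p = 0.0447), by limma. Fas, a death receptor, rose by 1.29 in implanted (adjusted p = 3.77e-05) and 0.59 in MMTV-PyMT ECs (adjusted p = 0.0466), and the difference between these responses did not pass (0.70, adjusted p = 0.0986). Zmat3 and Btg2, p53 targets in RNA decay and growth arrest, fell in all 3 tissues. The log2 changes in implanted, MMTV-PyMT and normal ECs were -0.97, -0.29 and -0.41 for Zmat3 and -0.71, -1.01 and -1.15 for Btg2. Tnfrsf10b, the TRAIL receptor, rose in normal ECs (0.91, adjusted p = 5.75e-04) and had a log2 change of -0.18 (adjusted p = 0.409) in implanted ECs.

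Of 13 transcription factors known to act on members, 8 rose and 1 fell in implanted ECs, 6 and 2 in MMTV-PyMT ECs and 8 and 1 in normal ECs. Over all tested genes the shares were 20.3% and 18.8%, 7.42% and 4.57%, and 13.7% and 18.2%. Irf1 went from 22.8 ± 4.8 to 134 ± 5.93 FPKM in spontaneous tumours (2.53, SE 0.13, adjusted p = 6.47e-10), while implanted ECs went from 48.3 ± 5.5 to 142 ± 22.4 FPKM (1.53, SE 0.13, adjusted p = 1.30e-07), and the tested difference of the 2 responses was -0.998 (adjusted p = 0.00232 by limma). Rela, an NF-kB subunit, rose by 1.03 in implanted, 0.58 in MMTV-PyMT and 0.76 in normal ECs, and Nfkb1 by 1.14, 0.68 and 0.31. The response was larger in implanted than in MMTV-PyMT ECs for Rela (difference 0.45, adjusted p = 0.0215) and Stat3 (0.39, adjusted p = 0.045), and the difference for Nfkb1 (0.46, adjusted p = 0.0765) did not pass in limma. Stat3 rose by 0.96, 0.57 and 0.80 and Myc by 0.57, 0.40 and 0.88 in the same order of tissues. Irf1, Rela, Nfkb1, Stat3 and Myc thus passed higher in all 3 tissues, MMTV-PyMT ECs included.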

How the data were processed

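ECs were enriched with CD31 beads and sorted, and libraries were made with a directional kit and sequenced as paired-end reads. Per the labels and the methods of the study, reads were checked with FastQC, aligned to mm10 with STAR 2.7 and counted with HTSeq. The authors deposited FPKM values for 16248 genes in 18 columns, and how they were made from counts was not given in the sources used here. Of the columns, 6 name a treatment and a number but no tissue. They were read as normal ECs, the 1 tissue that the remaining columns do not name. There were 0 columns without a matching sample. Dividing each value by the value of 1 read, with GENCODE M21 exon lengths where they fitted, gave whole reads (within 0.05 reads) for all 16248 genes in every library. FPKM divisors equalled median-of-ratios size factors.

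Genes with at least 1 FPKM in at least 3 libraries (13983, with 2265 left out) were tested on log2(FPKM + 1) with limma 3.58.1 in R 4.3.3, as 6 group means with trend in the prior spread, 2-sided, with Benjamini-Hochberg adjustment over all genes in each of 10 comparisons. The script was tested on simulated data. The study gives 3 mice per group from 3 independent experiments without saying which library is which, so p-values measure the spread between libraries, which may include an experiment effect that could not be separated.

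Members and gene lists were chosen with earlier results of these data known. Named were all 9 members, from each other list at most the 6 tested genes with the largest change among those past the threshold with cGAMP in any tissue, and the 3 genes most correlated with each member. Effect sizes of list genes named in the text use the same fit. Some genes that this rule names are counted in their lists but not reported here by name. The 4 promoter motifs were kept from a wider look at letter patterns. Alternatives were another pseudocount (0.1), no filter, a mean of at least 5 FPKM, quantile normalization, scaling by total reads, voom on recovered reads, only the groups compared, a replicate block, a log2 change of at least 1, and leaving out each library. No molecular identifiers were used, so the depth given speaks for counting error alone.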

Additional observations from a re-analysis of the deposited data

Results flagged for a closer look

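For 6 members the response to cGAMP differed between tissues by a test of the difference itself (limma, 3 libraries per group, Benjamini-Hochberg adjustment over all genes). Implanted minus MMTV-PyMT, the difference of log2 changes was 1.40 for Bcl2l11 and 0.96 for Bid. Implanted minus normal, it was 1.10 for Bbc3, 0.78 for Bcl2l11, 0.63 for Bak1, 0.56 for Bid, 0.47 for Mcl1 and -0.94 for Bcl2. In each of these 8 results except Mcl1 under quantile normalization the sign held under the scalings tried. The calls did not all hold. For implanted minus normal, Bcl2l11, Bak1, Bid and Mcl1 no longer passed under quantile normalization or under scaling by total reads. Bid also lost its call there with a pseudocount of 0.1, without the filter and with voom.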

How the results depend on the processing

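Of the 90 log2 changes of members, 40 kept their sign and their side of the threshold under every alternative that used all libraries, and 31 did so also with each library left out in turn. By setting, 89 of 90 did so with a pseudocount of 0.1 and without the filter, 87 with voom on recovered reads, 82 with the compared groups alone, 71 after quantile normalization and 63 when scaled by total reads. Requiring a log2 change of at least 1 left, as members higher and lower, 1 and 0 in normal, 0 and 0 in MMTV-PyMT and 4 and 0 in implanted ECs with cGAMP, 1 and 0 for the differences implanted minus MMTV-PyMT and implanted minus normal, 1 and 0, 2 and 0 and 1 and 0 for the PBS comparisons (MMTV-PyMT minus normal, implanted minus normal, implanted minus MMTV-PyMT), and 2 and 0 for implanted minus MMTV-PyMT with cGAMP. With a mean of at least 5 FPKM, which dropped Pmaip1 and Bid from the test, 0 members rose in normal ECs, 1 responded more in implanted than in MMTV-PyMT ECs, 1 responded less in MMTV-PyMT than in normal ECs, and with PBS 3 were higher in MMTV-PyMT than normal and 0 lower in implanted than MMTV-PyMT ECs.

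Scaling by total reads gave 1 member lower in MMTV-PyMT and 3 lower in implanted ECs with cGAMP, 1 responding less in implanted than MMTV-PyMT ECs, 1 responding more in implanted than normal ECs, 2 responding less in MMTV-PyMT than normal ECs, 2 lower in implanted than normal and 2 lower than MMTV-PyMT ECs with PBS, and 3 higher in implanted than MMTV-PyMT ECs with cGAMP. Quantile normalization gave 1 responding more in implanted than normal ECs and 2 members lower in each of the 3 PBS comparisons, in implanted minus MMTV-PyMT with cGAMP and, as responses, in MMTV-PyMT minus normal. Fits of the compared groups alone gave 1 lower in MMTV-PyMT ECs with cGAMP, 1 responding less in implanted than MMTV-PyMT and in MMTV-PyMT than normal ECs, and 2 lower in MMTV-PyMT and in implanted than normal ECs with PBS, and voom gave 1 responding less in MMTV-PyMT than normal ECs.

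Signs turned for the following. Quantile normalization and scaling by total reads gave Mcl1 -0.015 and -0.016 with cGAMP in MMTV-PyMT ECs, -0.096 and -0.019 for the response in MMTV-PyMT minus normal, and -0.23 and -0.12 for implanted minus MMTV-PyMT with cGAMP. They gave Bax -0.19 and -0.28 in implanted ECs, and Bcl2l1 -0.032 and -0.084 for the response and -0.098 and -0.30 for the cGAMP level in implanted minus MMTV-PyMT. Quantile normalization gave Mcl1 -0.058 for the response in implanted minus normal. Scaling by total reads gave Bax -0.058 for the response in MMTV-PyMT minus normal, Bbc3 -0.037 with PBS in implanted minus normal and, with PBS in implanted minus MMTV-PyMT, -0.11 for Bbc3 and -0.055 for Pmaip1. The cause was not tested. Over all genes, total reads turned the higher and lower calls from 1026 and 520 to 643 and 1084 (response, implanted minus MMTV-PyMT), 1751 and 851 to 900 and 2546 (response, implanted minus normal), 766 and 405 to 567 and 886 (response, MMTV-PyMT minus normal), 3499 and 3305 to 2520 and 4830 (PBS, implanted minus normal), 2915 and 3446 to 2187 and 4916 (PBS, implanted minus MMTV-PyMT) and 3636 and 3486 to 1947 and 6129 (cGAMP, implanted minus MMTV-PyMT). Quantile normalization gave 765 and 822, 1342 and 1395, and 868 and 699 for the 3 responses.

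Leaving out 1 library turned the sign in 12 results, with ranges of -0.042 to 0.11 (Bax) and -0.37 to 0.043 (Bcl2l1) in implanted ECs, -0.00065 to 0.14 (Bcl2l1) and -0.031 to 0.0697 (Mcl1) in normal ECs, -0.0402 to 0.20 (Bax) for the response MMTV-PyMT minus normal, -0.13 to 0.021 (Bax) and -0.36 to 0.19 (Pmaip1) for implanted minus normal, -0.092 to 0.32 (Bcl2l1) for implanted minus MMTV-PyMT, -0.15 to 0.27 (Bcl2l1) with cGAMP, and -0.064 to 0.13 (Bbc3), -0.18 to 0.033 (Bcl2l1) and -0.072 to 0.24 (Pmaip1) with PBS in implanted minus MMTV-PyMT. Counts ranged from 0 to 1 lower in MMTV-PyMT ECs, 3 to 5 responding more in implanted than normal ECs, 0 to 1 responding less in MMTV-PyMT than normal ECs, and 1 to 2 lower in MMTV-PyMT and in implanted than normal ECs with PBS. The balance rose by 0.34 and 0.16 in implanted and MMTV-PyMT ECs from summed FPKM and by 1.25 in implanted ECs from medians.

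The replicate numbers gave little sign of pairing: 1 of 9 same-numbered pairs within a tissue had a correlation of deviations over 0.1 (-0.291 to 0.263). With 3 libraries a group, this cannot exclude that same-numbered libraries shared an experiment. A fit with the number as a block gave 6 members higher and 1 lower in implanted ECs, lost Bid in the response implanted minus normal (0.56, adjusted p = 0.0729) and gained Bbc3 in implanted minus MMTV-PyMT with cGAMP (0.42, adjusted p = 0.0481). With 3 libraries a group, the 95% intervals of the members' cGAMP changes within a tissue were 0.387 (Mcl1) to 0.913 (Pmaip1) wide on the log2 scale.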
